A study of Sus scrofa with 14 samples.

Results

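The report follows 10 genes of the unfolded protein response and of the secretory chaperone system in the mammary gland of the pig (Sus scrofa): HSPA5, HSP90B1, CALR, CANX, PDIA4, XBP1, ERN1, ATF4, DDIT3 and CREB3L1. The genes were listed by symbol and looked up among the 30071 gene identifiers shared by the 14 libraries of the study. Of the 10 genes, 9 were found. ERN1 was not found by symbol, because the identifier that the reference names ERN1 carries the symbol ICAM2 in the count tables, so no value is given for it.

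Single nuclei were sequenced from mammary glands of 10 sows, 2 at each of 5 stages: day 90 of gestation (G90), day 0 of lactation (L0), day 20 of lactation (L20), and 2 days (PI2) and 7 days (PI7) post natural involution in the labels' words. The sows were multiparous, received a normal diet and carried no treatment or engineered allele, and nuclei were prepared from frozen tissue of 1 region of the gland. Spatial sections (Visium, spots of several cells) came from 1 gland at G90 and 1 at PI2, and cells shed into milk were sequenced in 1 library of colostrum (L0) and 1 of mature milk (L20). After removal of nuclei with fewer than 300 genes or more than 25% mitochondrial UMIs (unique molecular identifiers, which count captured RNA molecules), 126833 of 128233 nuclei remained.

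Proteins that will be secreted enter the endoplasmic reticulum (ER) as unfolded chains. HSPA5 (BiP) and HSP90B1 (GRP94) hold these chains, CALR and CANX bind their sugar chains, and PDIA4 forms and rearranges their disulfide bonds. When unfolded protein accumulates, ERN1 (the IRE1 sensor) splices the XBP1 messenger, the PERK kinase favours translation of ATF4, and ATF4 in turn induces DDIT3 (CHOP), a factor of prolonged stress. CREB3L1 is a membrane-bound transcription factor of the ER that is cleaved to act on secretory genes. Mammary luminal cells in lactation and plasma cells are textbook examples of cells with an extended ER, the former for milk proteins and the latter for antibodies. Most of this regulation acts on splicing, translation and cleavage, none of which is read by UMI counts per gene.

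Promoter sequences are shown because chaperone genes of this response share a DNA element, the ER stress response element (ERSE), read by ATF6 and XBP1 with the factor NF-Y. In the 300 bases before the RefSeq start of 19556 protein-coding genes (Sscrofa11.1), the letters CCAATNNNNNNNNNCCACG, searched on both strands, occurred in 14 promoters, which is 0.0716% of them. Of the 10 genes, 4 held a match, and HSP90B1 held 2. The matches are printed 5′ to 3′ on the strand that carries the motif, with the fixed letters in capitals and the free letters between them in lower case.
HSP90B1, chr5:80531133-80531151, 135 to 117 bases before the start: CCAATtggaaggagCCACG
HSP90B1, chr5:80531029-80531047, 31 to 13 bases before the start, on the opposite strand: CCAATcgggctgcaCCACG
CALR, chr2:66102290-66102308, 234 to 216 bases before the start, on the opposite strand: CCAATgaaggtcgaCCACG
CANX, chr2:78915956-78915974, 146 to 128 bases before the start: CCAATccccacactCCACG
XBP1, chr14:46016590-46016608, 82 to 64 bases before the start: CCAATcgtggagggCCACG

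The whole window of HSP90B1 (chr5:80531017-80531316, minus strand, read in the direction of the gene and ending at the base before its start) is shown with both matches wholly in capitals, the second as its complement on this strand, since it was the promoter with 2 of them.
HSP90B1 promoter: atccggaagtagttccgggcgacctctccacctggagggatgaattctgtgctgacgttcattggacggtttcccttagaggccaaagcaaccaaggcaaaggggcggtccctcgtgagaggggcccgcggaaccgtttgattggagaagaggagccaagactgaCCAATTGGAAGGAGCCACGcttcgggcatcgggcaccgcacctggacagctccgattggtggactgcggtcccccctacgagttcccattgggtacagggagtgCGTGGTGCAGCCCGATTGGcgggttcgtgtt
The window of HSPA5 (chr1:265934960-265935259, minus strand) is shown because HSPA5 had the widest range between glands in luminal nuclei among the genes above the limit of detection, and it held no match to all the fixed letters at this spacing.
HSPA5 promoter: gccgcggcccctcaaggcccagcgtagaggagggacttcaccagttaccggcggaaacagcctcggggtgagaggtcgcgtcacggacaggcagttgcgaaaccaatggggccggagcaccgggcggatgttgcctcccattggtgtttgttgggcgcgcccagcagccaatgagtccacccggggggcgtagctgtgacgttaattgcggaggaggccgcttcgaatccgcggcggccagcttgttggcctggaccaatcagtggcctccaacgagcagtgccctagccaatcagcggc
A second element, UPRE (TGACGTGG, both strands), occurred in 122 promoters (0.624%) and in none of the 10 genes. The CARE element of ATF4 targets (TTGCATCA, both strands) occurred in 146 promoters (0.747%) and in 1 of the 10, DDIT3, at chr5:22790125-22790132, 265 to 258 bases before the start. A match describes letters only, and the absence of one says nothing on whether a factor binds.

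Each gland library held 18962138 to 53165191 UMIs, with a median of 1382 to 2496 UMIs per kept nucleus. The 2 milk libraries held 46923887 and 84971814 UMIs and the 2 sections 17906403 and 42815421. Pairs of gland libraries shared 52 to 205 cell barcodes, and the 2 milk libraries shared 284. Milk protein genes took 0.827 to 1.13% of UMIs in the L0 glands and 0.812% in G90 sow 2, against 0.0107 to 0.121% in the other 7 glands. Immediate early and heat shock genes, a sign of tissue handling, were low in the same 3 libraries (191 and 259 CPM at L0 and 244 CPM in G90 sow 2, where CPM is UMIs of the gene per 1000000 UMIs) and stood at 784 to 1649 CPM in the others. Nuclei were assigned to a class by detected marker genes, so a class name below means nuclei that carry those markers. Luminal epithelial-marker nuclei numbered 57275, from 982 to 11748 per gland (6.48 to 67.3% of nuclei).

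To see how the genes moved across the reproductive cycle, UMIs were summed per gland over all nuclei and over luminal nuclei. The 5 chaperones and folding proteins, HSPA5, HSP90B1, CALR, CANX and PDIA4, were lower in both L0 glands than in all 8 other glands, over the whole gland as well as in luminal nuclei. XBP1, CREB3L1 and DDIT3 did not show this, and ATF4 showed it in luminal nuclei only, where its L0 values of 52.6 and 56.6 CPM lay under a lowest value elsewhere of 61.3 CPM. Both L0 glands lay below all 8 others for 16.8% of 8457 genes over the whole gland and for 16% of 7940 genes in luminal nuclei, counting genes with a mean of at least 20 CPM. No gene of the 9 passed the test between stages. In sums over a whole gland, fewer cells of a type and less RNA per cell cannot be told apart.

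In luminal nuclei, HSPA5, the main ER chaperone, stood at 21.1 and 40.4 CPM at G90, 12.9 and 10.8 CPM at L0, 65.2 and 21.7 CPM at L20, 16.3 and 339 CPM at PI2, and 41.4 and 22.1 CPM at PI7. HSP90B1 stood at 92.8 and 135 CPM at G90, 39.6 and 46.0 CPM at L0, 143 and 64.4 CPM at L20, 58.2 and 488 CPM at PI2, and 107 and 71.7 CPM at PI7. The L0 pair was the lowest for both genes, and PI2 sow 2 stood far above the other 9 glands. The ranges of G90, L20, PI2 and PI7 overlapped each other.

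CALR, the soluble lectin chaperone, also had its lowest luminal values at L0 and its highest in PI2 sow 2, with 68.4 and 55.1 CPM at G90, 20.3 and 20.5 CPM at L0, 114 and 25.7 CPM at L20, 43.3 and 279 CPM at PI2, and 62.9 and 51.5 CPM at PI7. PDIA4 ranged from 11.4 and 12.2 CPM at L0 to 94.4 CPM in PI2 sow 2, with the other 7 glands between 22.7 and 55.7 CPM. CANX, the membrane-bound lectin chaperone, had its lowest values at L0 (61.0 and 71.6 CPM) and its highest not in PI2 sow 2 (182 CPM) but in PI7 sow 1 (211 CPM). The L0 values of the 5 genes rested on 149 to 1094 UMIs per gland.

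The transcription factors had another order. XBP1 was highest in G90 sow 2 (335 CPM) and lowest in L20 sow 2 (68.9 CPM), and at L0 it stood at 117 and 126 CPM, close to its median of 121 CPM over the 10 glands. CREB3L1 lay between 20.6 CPM (G90 sow 1) and 56.7 CPM (PI7 sow 2). ATF4 was highest in L20 sow 1 (145 CPM). DDIT3 was near the limit of detection, with at most 1.87 CPM (L20 sow 1, 27 UMIs), and L20 sow 2 had 0 of 3541387 UMIs, which allows up to 0.847 CPM.

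**Figure D1:**
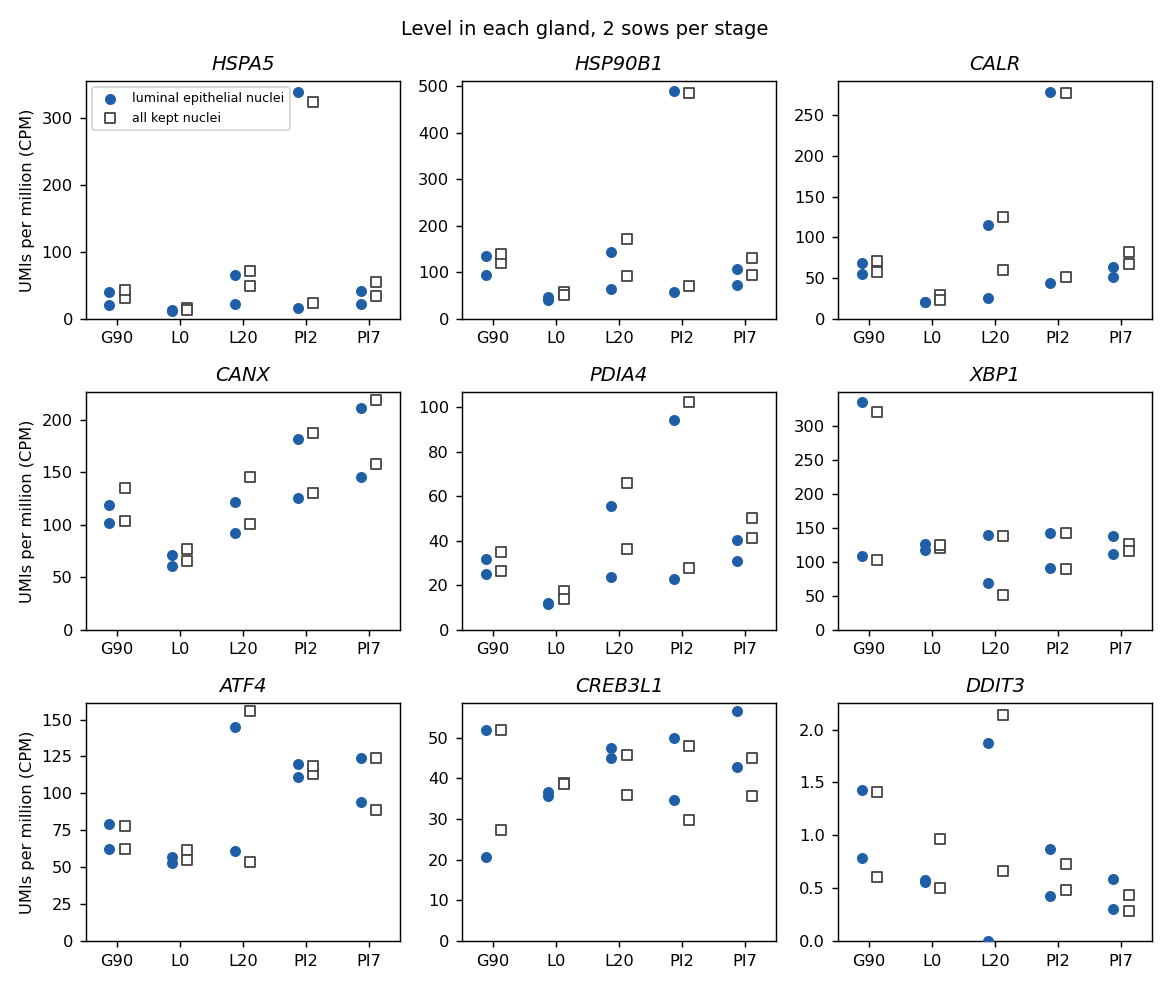
Level of each gene (y axis, CPM) in the 10 glands by stage (x axis), with 1 filled circle per gland for luminal epithelial nuclei and 1 open square per gland for all kept nuclei. For HSPA5, HSP90B1, CALR, CANX and PDIA4 both L0 glands lie below all other glands, and PI2 sow 2 reaches 339 CPM for HSPA5 against 16.3 CPM in PI2 sow 1.

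The test between stages (edgeR quasi-likelihood, Benjamini-Hochberg over all genes, called at an adjusted p under 0.05) called none of the 9 genes in any contrast, and DESeq2 called none in the contrasts between adjacent stages or of L0 against the 4 others. Over the whole gland, 22695 genes were tested and the share called was 0.842% for L0 against the 4 other stages and 0% for L0 against G90, L20 against L0, PI2 against L20, PI7 against PI2 and any stage. In luminal nuclei, 19599 genes were tested and the share called was 1.61% for L0 against the 4 other stages, 0.0051% for L0 against G90, 0.0867% for any stage and 0% for L20 against L0, PI2 against L20 and PI7 against PI2. At an unadjusted p under 0.05, between 0 and 2 of the 9 genes passed in these contrasts. The share of all genes at that threshold over the whole gland was 7.28% for L0 against G90, 12.8% for L20 against L0, 3.6% for PI2 against L20, 2.04% for PI7 against PI2, 14.3% for L0 against the 4 other stages and 10.1% for any stage. In luminal nuclei it was 10.3%, 11.9%, 2.85%, 2.59%, 15.4% and 12% for these contrasts in the same sequence.

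For L0 against the 4 other stages in luminal nuclei, the log2 fold change was -1.83 ± 0.97 (SE, 10 glands) for HSPA5 with an adjusted p of 0.408, -1.63 ± 0.78 for CALR with an adjusted p of 0.353 and -1.38 ± 0.62 for PDIA4 with an adjusted p of 0.325. HSP90B1 had -1.27 ± 0.74 and CANX -0.61 ± 0.34. XBP1 was at 0.17 ± 0.53 and CREB3L1 at 0.09 ± 0.47. The median over the 9 genes was -0.61 on the log2 scale and that over all genes tested -0.08. The 4 other stages include PI2 sow 2, with 339 CPM of HSPA5 against at most 65.2 CPM in the other 9 glands. Against G90 alone, the L0 change in luminal nuclei was -1.09 ± 1.09 for HSPA5, -1.20 ± 0.89 for CALR and -0.87 ± 0.72 for PDIA4. It was -1.09 ± 0.86 for HSP90B1 and -0.35 ± 0.41 for CANX, with none called. Over any stage, HSPA5 had an unadjusted p of 0.0227 over the whole gland and 0.0294 in luminal nuclei (adjusted p = 0.383 and 0.335 by edgeR). DESeq2 in place of edgeR called HSPA5 for any stage. Leaving PI2 sow 1 out of the edgeR fit keeps only PI2 sow 2 at that stage, so calls of that fit are not used. Without a filter on low counts, HSPA5, HSP90B1 and CALR were called for any stage in luminal nuclei.

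Of the 79 other pathway genes tested in each of these contrasts, 1 was called: DNAJC1, a co-chaperone of the ER membrane, was higher in luminal nuclei at L0 than at the 4 other stages (log2 fold change 1.73 ± 0.35, adjusted p = 0.0379 by edgeR). The median of the 79 genes in that contrast was 0.10, against -0.61 for the 9. Genes for degradation of misfolded proteins, such as HERPUD1 and the EDEM genes, had a median of 0.55 over 12 genes with none called, and the 14 folding enzymes a median of -0.08 with none called.

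The spread between the 2 PI2 glands was wider than between the sows of any other stage for HSPA5. In luminal nuclei the level in sow 2 was 20.8 times that in sow 1 for HSPA5, 8.39 times for HSP90B1, 6.44 times for CALR and 4.16 times for PDIA4. The ratio was 1.45 for CANX, 1.56 for XBP1, 1.08 for ATF4 and 1.44 for CREB3L1, and DDIT3 had 11 UMIs in sow 1 and 6 in sow 2. In the 2 glands, 8 genes had a mean over 20 CPM, HSPA5 only through sow 2 (16.3 CPM in sow 1). Of these, 4 were at least 2-fold higher in sow 2, where 13.4% of 8040 genes were. This is a difference between 2 animals of 1 stage, chosen after its values were seen, and it has no test.

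Against the highest of the other 9 glands, HSPA5 in luminal nuclei of PI2 sow 2 was 5.21-fold higher, HSP90B1 3.42-fold and CALR 2.44-fold. These 3 ranked 4, 9 and 27 among 7940 genes by that ratio, and 56 genes, 0.705%, reached 2-fold. PDIA4 was 1.70-fold higher and ranked 115. CANX, XBP1, ATF4 and CREB3L1 were below the highest other gland. Among the other pathway genes, HYOU1, a chaperone that exchanges the nucleotide of HSPA5, was 3.71-fold higher, PDIA3 2.38-fold and WFS1 2.10-fold.

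The pathway genes around them were uneven in the comparison of sow 2 with sow 1. Of 11 chaperones and co-chaperones over 20 CPM, 5 were at least 2-fold higher: MANF 9.53-fold, HYOU1 7.95-fold, CRELD2 5.62-fold, DNAJC3 3.23-fold and DNAJB11 2.99-fold. FKBP14, a prolyl isomerase, was 8.09-fold lower. Of 9 sensors, WFS1 (4.69-fold) and ATF6B (2.50-fold) were at least 2-fold higher and none lower, and of 11 degradation genes SELENOS (3.897-fold) was higher and none lower. Of 12 folding enzymes, PDIA3 (5.07-fold) and PDIA5 (2.51-fold) were higher, and of 15 genes for entry into the ER, SEC63 and SSR2 were higher and SPCS1 lower. Among 7 genes of the ATF4 group, NUPR1 (7.59-fold) and CEBPB (4.56-fold) were higher, while ASNS, an amino acid synthase induced by ATF4, was 4.05-fold lower. The median ratio was 1.76 for the chaperone group and 0.877 for all 8040 genes.

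HSPA5, HSP90B1, CALR and PDIA4 were higher in sow 2 in all 7 classes with at least 10 nuclei in both glands, though not by the same fold. The share of all genes higher in sow 2 is given for luminal nuclei only. The folds in the other classes therefore have no background, and the comparison was chosen after its values were seen. HSPA5 was 8.46-fold higher in sow 2 in fibroblast nuclei, 7.18-fold in endothelial, 4.82-fold in hormone-sensing, 3.59-fold in myoepithelial, 2.80-fold in T and NK and 2.39-fold in macrophage nuclei (42 against 17 UMIs). HSP90B1 was 7.66-fold higher in fibroblast and 8.98-fold higher in macrophage nuclei, and 1.71-fold higher in myoepithelial nuclei. XBP1 was 0.44 times its sow 1 level in macrophage nuclei, on 5 and 11 UMIs. The number of HSPA5 UMIs per HSP90B1 UMI in sow 2 was 0.695 in luminal nuclei (4755 and 6841 UMIs) and 0.216 in plasma nuclei (38 and 176 UMIs), so the 2 genes did not stand in 1 ratio in these 2 classes. The ratio was 0.558 in myoepithelial (24 and 43 UMIs), 0.537 in T and NK (22 and 41 UMIs), 0.462 in fibroblast, 0.44 in endothelial, 0.412 in macrophage and 0.384 in hormone-sensing nuclei. Milk protein RNA, a luminal product, was found in the other classes of sow 2 as well, at 0.0704% of UMIs in myoepithelial, 0.0679% in endothelial, 0.0424% in macrophage, 0.0342% in fibroblast and 0.0260% in T and NK nuclei, against 0.105% in luminal nuclei. In sow 1 it was 0.00584 to 0.0101% in these classes and 0.0526% in luminal nuclei. The part of RNA carried over between nuclei in the class values was not tested.

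**Figure D2:**
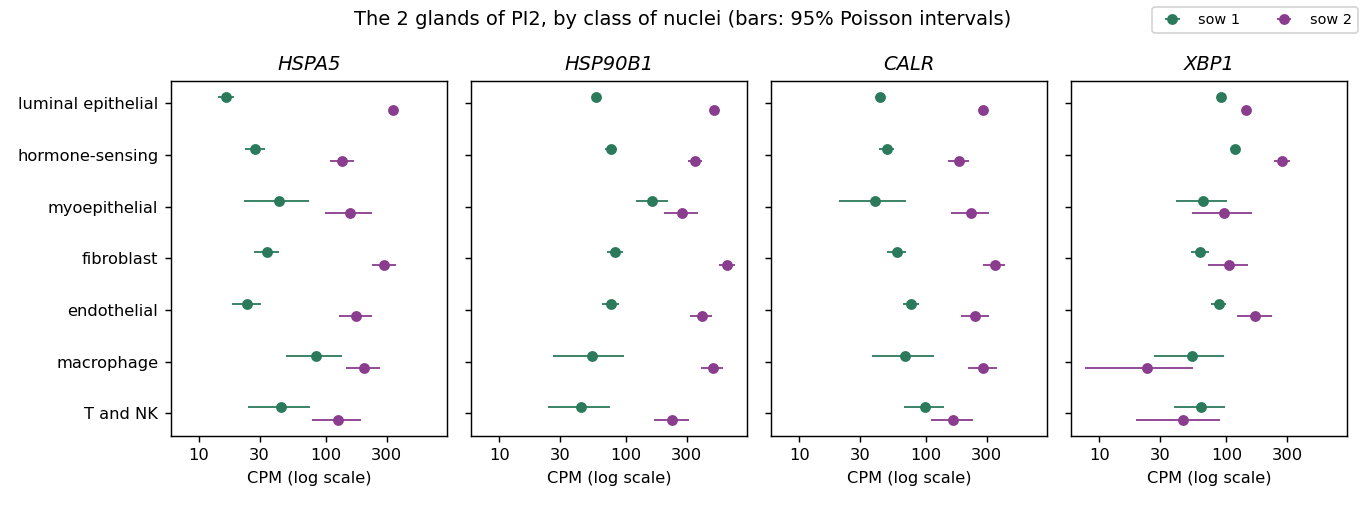
Level of HSPA5, HSP90B1, CALR and XBP1 (x axis, CPM on a log scale) in 7 classes of nuclei from the 2 glands of PI2, with bars for 95% Poisson intervals of the counts. HSPA5 lies higher in sow 2 in all 7 classes, from 2.39-fold in macrophage to 20.8-fold in luminal epithelial nuclei, and XBP1 lies 1.56-fold higher in luminal nuclei.

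A UMI of HSPA5 was found in 2.91% of 5815 luminal nuclei in sow 1 and in 32.6% of 6234 in sow 2. After each nucleus was thinned to 1000 UMIs, leaving out 709 and 418 shallower nuclei, the shares were 1.46% and 21.6%, and those of XBP1 7.99% and 11.8%. All cells use HSPA5, so no class gives its background. In T and NK nuclei the unthinned share was 3.38% in sow 1 (median 815 UMIs) and 10.0% in sow 2 (938 UMIs). The median depth of luminal nuclei was 2021 UMIs in sow 1 and 1921 UMIs in sow 2, mitochondrial UMIs were 0.0319% and 0.179% per nucleus by median, and handling genes stood at 1019 and 771 CPM. Nuclei that also carried 2 or more markers of another class numbered 1621 in sow 1 and 716 in sow 2. Their part in the difference was not tested.

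Next, the classes of one gland were compared. The 10 other classes were set against luminal nuclei with the gland as block, over 14582 genes, of which 8 of the 9 were tested, because DDIT3 did not pass the filter on low counts. Plasma nuclei had the highest median levels of HSPA5, HSP90B1, CALR and PDIA4 of the classes, CANX had its highest median in macrophage nuclei (235 CPM against 220.1 CPM in plasma nuclei), fibroblast and macrophage nuclei had most chaperones called higher than in luminal nuclei under TMM scaling, calls that were lost under DESeq2, and XBP1 was lower than in luminal nuclei in 7 classes. Of these 7, mural and B nuclei had glands with 0 CPM of XBP1, and adipocyte nuclei came mostly from 1 gland. The class values depend on the scaling. DESeq2, a change of the whole method, moved the median of all genes from -0.12 to -0.73 in fibroblast, from -0.10 to -0.73 in endothelial, from -0.12 to -0.83 in macrophage, from -0.20 to -1.05 in myoepithelial and from -0.36 to -1.28 in plasma nuclei (log2 fold change against luminal nuclei, edgeR with TMM and then DESeq2). RLE size factors moved the medians the other way, to 0.19, 0.18, 0.17, 0.17 and 0.32 in the same sequence. Values are therefore also given relative to the median of all genes in the same class, which moved little.

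In plasma nuclei (544 in all, 9 glands with at least 10), 6 of the 8 genes were called, where 36.8% of all genes were, with 1402 genes higher and 3965 lower. PDIA4 (log2 fold change 2.65 ± 0.24, adjusted p = 1.97e-16 by edgeR), HSP90B1 (2.57 ± 0.25, adjusted p = 3.4e-15), HSPA5 (1.62 ± 0.31, adjusted p = 1.4e-05) and CALR (1.33 ± 0.25, adjusted p = 6.77e-06) were higher than in luminal nuclei of the same glands. By CPM, HSPA5, HSP90B1, CALR, PDIA4 and also CANX, which was not called, were each higher in 9 of 9 glands. XBP1 was higher in 8, ATF4 in 7 and CREB3L1 in 2 of the 9. CREB3L1 was lower (-1.35 ± 0.41, adjusted p = 0.00569 by edgeR). XBP1 was called higher under TMM (0.76 ± 0.23, adjusted p = 0.00485 by edgeR) and turned to -0.23 under DESeq2 (adjusted p = 0.476), while relative to the median of all genes it was above it under both. CANX stood at 0.19 ± 0.19 and ATF4 at 0.03 ± 0.22, neither called.

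By gland, HSP90B1 in plasma nuclei ranged from 302 CPM (L20 sow 2) through a median of 1200 CPM to 1754 CPM (L0 sow 1), against 39.6, 82.2 and 488 CPM as lowest, median and highest in luminal nuclei. PDIA4 ranged from 171 through 240 to 564 CPM in plasma nuclei and from 11.4 through 28.1 to 94.4 CPM in luminal nuclei. The 9 plasma values of each lay above the luminal value of the same gland, and for PDIA4 all lay above the highest luminal value. HSPA5 ranged from 34.8 through 181 to 364 CPM in plasma nuclei, on 3 to 38 UMIs per gland, and its highest gland was PI2 sow 2. The HSPA5 call was lost under DESeq2 (0.67, adjusted p = 0.0812) and so was that of CALR (0.33, adjusted p = 0.284), while those of HSP90B1 (1.61, adjusted p = 1.46e-09) and PDIA4 (1.68, adjusted p = 1.47e-10) held.

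The other pathway genes are given under edgeR with TMM only, in plasma nuclei and in the classes below. Under DESeq2 the median of all genes in plasma nuclei moved to -1.28, and whether the pathway calls hold there is not shown. Of 79 tested, 39 were higher and 10 lower than in luminal nuclei, with a median log2 fold change of 0.68 against -0.36 for all genes. Folding enzymes were higher in 9 of 14, led by TXNDC5 (4.26 ± 0.24) and TXNDC11 (3.36 ± 0.18), both thioredoxin-domain proteins of the ER. Chaperones were higher in 8 of 13, led by CLGN (6.06 ± 0.33) and HYOU1 (2.18 ± 0.26), and lower in 2, FKBP14 (-1.19 ± 0.42) and DNAJC1 (-1.15 ± 0.23). Degradation genes were higher in 7 of 12, led by DERL3 (4.22 ± 0.35) and HERPUD1 (3.05 ± 0.18), and lower in 2, among them DERL1 (-0.64 ± 0.23).

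Entry into the ER, the step of the signal peptidase and the translocon, was higher in 12 of 17 genes and lower in none, with SPCS1 (1.88 ± 0.25) and SPCS2 (1.77 ± 0.21) first. The sensors were split. EIF2AK3, which encodes PERK, was higher (2.60 ± 0.19) and so was CREB3L2 (0.88 ± 0.19), while EIF2AK4 (-1.55 ± 0.23) and NFE2L2 (-0.87 ± 0.19) were lower, out of 11. In the ATF4 group 1 of 12 was higher and 4 lower, among them ATF3 (-2.73 ± 0.58) and ASNS (-1.48 ± 0.28), and its median of -0.30 was near the -0.36 of all 14582 genes, of which 1402 were higher and 3965 lower.

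**Figure D3:**
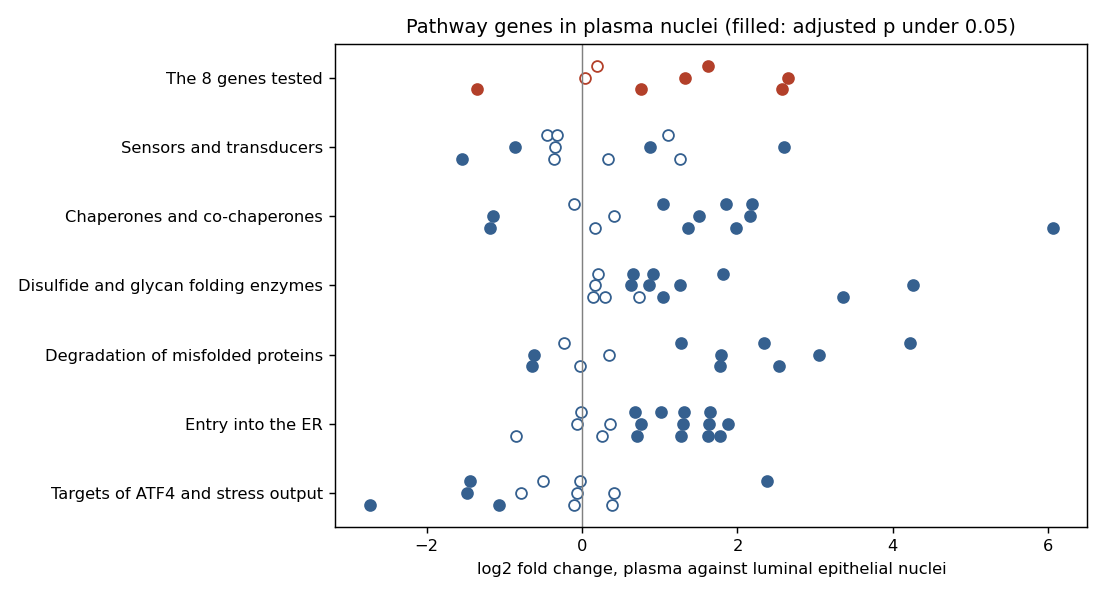
Log2 fold change of plasma against luminal epithelial nuclei (x axis, edgeR with TMM) for the 8 genes tested and for 79 other pathway genes in 6 groups, with 1 point per gene and filled points for an adjusted p under 0.05. In the group for entry into the ER 12 of 17 genes are higher and none lower, and in the ATF4 group 1 of 12 is higher and 4 are lower.

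In fibroblast nuclei, 5 of the 8 genes were called, where 45.4% of all genes were. HSP90B1 (0.82 ± 0.23), PDIA4 (0.73 ± 0.21), CALR (0.72 ± 0.20) and HSPA5 (0.71 ± 0.25) were higher and XBP1 was lower (-0.78 ± 0.20, adjusted p = 0.000757 by edgeR). Relative to the median of all genes, HSP90B1 was at 0.94 under TMM and 0.90 under DESeq2, and HSPA5 at 0.83 and 0.76. Under DESeq2 the 4 chaperones stood at 0.03 to 0.17 and lost their calls, while XBP1 kept its call (-1.44). HSP90B1, CALR and PDIA4 were higher and XBP1 lower in 10 of 10 glands, and HSPA5 was higher in 9 of 10.

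Of 79 other pathway genes in fibroblast nuclei, 8 were higher and 10 lower under edgeR with TMM, where 2869 of all 14582 genes were higher and 3751 lower. Among folding enzymes, 4 of 14 were higher, led by UGGT2, a folding sensor of glycoproteins (3.87 ± 0.25), and TXNDC5 (1.02), and 1 was lower, GANAB (-0.46). The chaperones PPIB (1.35 ± 0.22), a prolyl isomerase, and MANF (0.80) were higher and SIL1 (-0.75) was lower. SEC11C, a signal peptidase subunit, was lower (-1.36 ± 0.23), as was the degradation gene DERL1 (-0.68). Of the sensors, CREB3L4 (1.37) and EIF2AK3 (1.06) were higher and WFS1 (-0.72) lower, and of the 12 genes of the ATF4 group 4 were lower, led by ATF3 (-1.83) and ASNS (-0.92).

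In macrophage nuclei, 7 of the 8 genes were called, where 45.8% of all genes were. CALR (0.89 ± 0.21), HSPA5 (0.86 ± 0.26), HSP90B1 (0.67 ± 0.23), CANX (0.66 ± 0.16) and PDIA4 (0.62 ± 0.22) were higher, and CREB3L1 (-2.39 ± 0.30) and XBP1 (-1.63 ± 0.22) lower. Under DESeq2, HSP90B1 (-0.08), CANX (-0.08) and PDIA4 (-0.09) changed sign, none of them with an adjusted p under 0.05, and HSPA5 (0.11) and CALR (0.13) lost their calls. Relative to the median of all genes the 3 were at 0.79, 0.78 and 0.74 under TMM and 0.75, 0.75 and 0.74 under DESeq2. With nuclei that carried markers of another class left out, 4 of the 8 were called.

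Of 79 other pathway genes in macrophage nuclei, 9 were higher and 17 lower under edgeR with TMM, where 2638 of all 14582 genes were higher and 4035 lower. The oxidase ERO1B (1.89) and PDIA3 (1.02) were the 2 folding enzymes that were higher, and PDIA5 (-0.62) was lower. The chaperone DNAJC3 (0.62) was higher, while FKBP14 (-1.23) and DNAJC1 (-0.80) were lower. The degradation genes were even, with SELENOS (0.89) and OS9 (0.61) among 3 higher and EDEM3 (-0.82) and DERL1 (-0.81) among 3 lower. Entry into the ER was lower in 3 of 17 and higher in none, led by SEC11C (-1.24) and SRPRA (-0.58). In the ATF4 group 5 of 12 were lower, led by NUPR1 (-1.48) and ATF3 (-1.26), and VLDLR (0.88) was higher. Of the sensors, EIF2AK3 (0.53) was higher and CREB3L2 (-0.86) and MBTPS1 (-0.51) lower.

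Endothelial nuclei had 5 calls, where 46.4% of all genes were called. CALR (0.63 ± 0.20), PDIA4 (0.59 ± 0.21), HSP90B1 (0.58 ± 0.22) and ATF4 (0.47 ± 0.17) were higher under TMM, and CREB3L1 was lower (-1.07 ± 0.24). The 4 higher values turned to -0.03, -0.04, -0.09 and -0.17 under DESeq2, and relative to the median of all genes they were at 0.70, 0.69, 0.64 and 0.56 there. ATF4 and PDIA4 were each higher in 10 of 10 glands. Leaving out either L0 gland left 3 calls. Under edgeR with TMM, endothelial nuclei were the only class in which ATF4 was called, and DESeq2 did not give this call (adjusted p = 0.473). Whether endothelial nuclei differ in ATF4 from the other classes was not tested. Of the 12 genes of the ATF4 group there, 4 were higher, led by DDIT4 (2.25) and PPP1R15A (1.92), and 5 lower, led by ATF3 (-1.57) and TRIB3 (-1.17). Of all 79 other pathway genes, 15 were higher and 16 lower under edgeR with TMM, where 2863 of all 14582 genes were higher and 3906 lower.

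Myoepithelial nuclei had 4 calls, where 31.7% of genes were called: HSPA5 (1.03 ± 0.27) and HSP90B1 (0.71 ± 0.24) were higher, and CREB3L1 (-2.02 ± 0.33) and XBP1 (-1.12 ± 0.22) lower. Under DESeq2, HSP90B1 turned to -0.20 and HSPA5 stood at 0.09 without a call, while relative to the median of all genes there they were at 0.86 and 1.14. In T and NK nuclei, 2 of 8 were called, where 49% of genes were, and both were lower: XBP1 (-1.67 ± 0.23) and CREB3L1 (-1.36 ± 0.29). XBP1 was the single gene called, and was lower, in mural nuclei (-1.97 ± 0.37, 32.1% of genes called), in B nuclei (-2.32 ± 0.59, 21.2% called, 3 glands) and in adipocyte nuclei (-1.15 ± 0.34, 24.9% called, 5 glands). It was at 0 CPM in 2 of 6 glands for mural nuclei and in 1 of 3 for B nuclei. Of the 521 adipocyte nuclei, 433 came from L20 sow 2. The counts of called genes depend on the method: DESeq2 called 6 genes in mural, 7 in B, 5 in adipocyte and 7 in T and NK nuclei, and RLE size factors called 2 in mural and 0 in B nuclei. Under DESeq2 the median of all genes stood at -1.35, -1.59, -0.95 and -0.99 in these classes in the same sequence. The share of all genes called by DESeq2 or with RLE is not given, so these counts have no background. XBP1 lost its call under RLE in B and adipocyte nuclei. The B call was lost without PI7 sow 1, and adipocyte nuclei had 0 calls when those with markers of another class (251 of 521) were left out. Of 79 other pathway genes, 5 were higher and 11 lower in myoepithelial, 4 and 19 in mural, 8 and 27 in T and NK, 0 and 10 in B, and 7 and 6 in adipocyte nuclei. Over all 14582 genes these counts were 1580 and 3046, 1352 and 3327, 2793 and 4345, 956 and 2142, and 1194 and 2430 in the same sequence.

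Hormone-sensing nuclei, the luminal nuclei with at least 2 of ESR1, PGR, PRLR, FOXA1 and TBX3, did not differ from the other luminal nuclei by the test in any of the 8 genes, where 1.89% of genes were called, and 2 of the 8 had an unadjusted p under 0.05 (PDIA4 and XBP1), where 11% of genes did. DESeq2 called 0 of the 8 as well. PDIA4 stood at 0.51 ± 0.20 and XBP1 at 0.45 ± 0.19. Of 79 other pathway genes, 3 were higher and none lower, namely CREB3L4 (1.34 ± 0.32), EDEM3 (0.99 ± 0.19) and CREB3L2 (0.70 ± 0.17). These nuclei were deeper, with a median of 2860 to 5693 UMIs per gland against 1592 to 2931 UMIs in luminal nuclei.

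**Figure D4:**
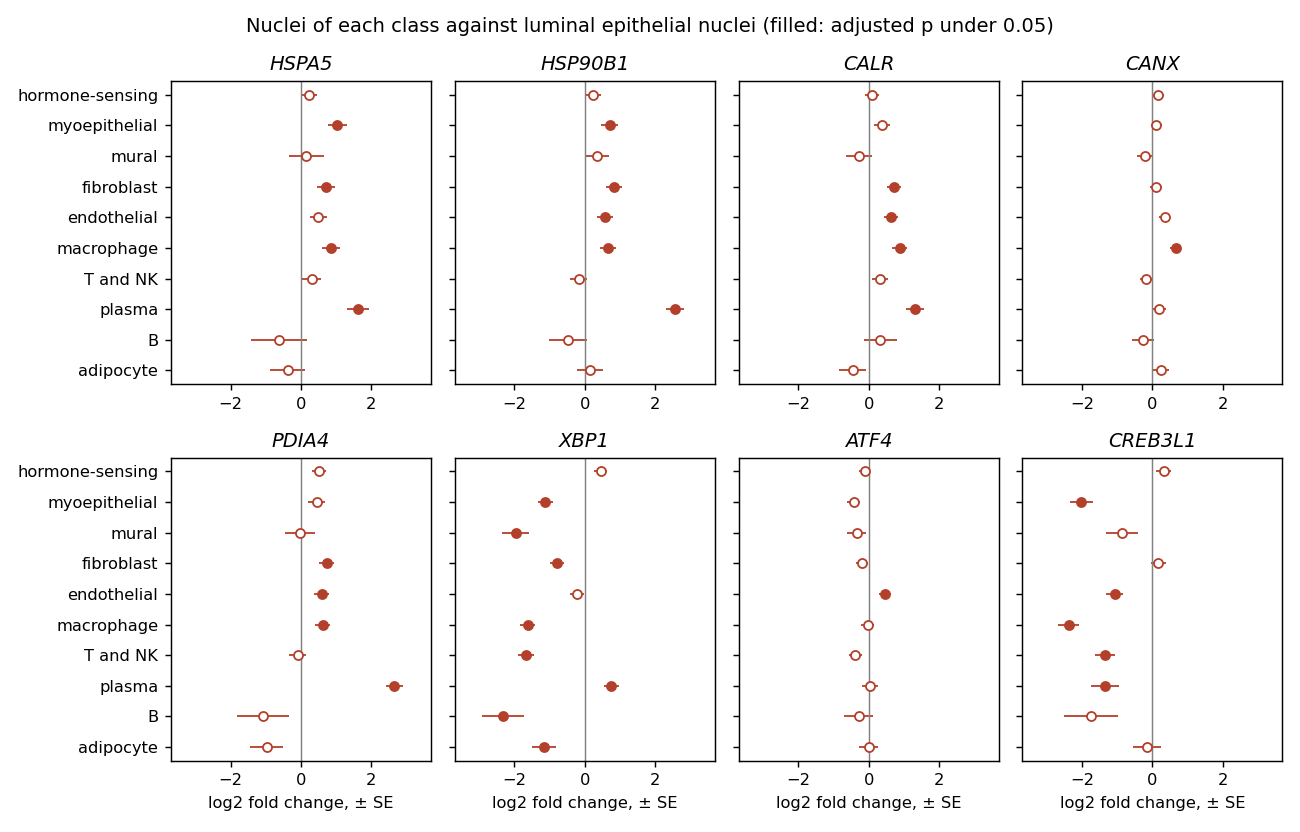
Log2 fold change of 8 genes (1 panel each) in nuclei of 10 classes against luminal epithelial nuclei of the same glands (x axis, edgeR with TMM), with bars for the SE and filled points for an adjusted p under 0.05. PDIA4 and HSP90B1 reach 2.65 and 2.57 in plasma nuclei and XBP1 is lower in 7 classes, while under DESeq2 in place of edgeR HSP90B1 changes sign in myoepithelial, endothelial and macrophage nuclei, CALR, PDIA4 and ATF4 in endothelial, CANX and PDIA4 in macrophage and XBP1 in plasma nuclei.

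Luminal nuclei were also divided by the milk protein UMIs found in them. Nuclei with UMIs of at least 2 milk protein genes (CSN1S1, CSN2, CSN3 and LALBA were found) were compared with nuclei that had none, gland by gland, to ask whether the secretory machinery follows milk protein RNA within a gland. The 3 genes called were all higher in the positive nuclei: CREB3L1 (0.86 ± 0.15, adjusted p = 0.000449 by edgeR, higher in 9 of 10 glands), XBP1 (0.70 ± 0.14, adjusted p = 0.00151, 9 of 10) and HSP90B1 (0.40 ± 0.11, adjusted p = 0.0247, 10 of 10). Of 13531 genes, 10% were called, 605 higher and 750 lower. HSPA5 stood at 0.08 ± 0.17, higher in 4 of 10 glands, and CALR, CANX, PDIA4 and ATF4 at 0.17 to 0.23, none called.

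By gland, CREB3L1 in positive nuclei ranged from 20.3 through 53.6 to 91.2 CPM and in free nuclei from 13.3 through 33.1 to 55.9 CPM. XBP1 ranged from 99.3 through 129 to 343 CPM in positive and from 51.7 through 99.97 to 151 CPM in free nuclei. The ranges overlapped between glands, and the difference was within glands. Of 76 other pathway genes, 10 were higher and none lower, among them SSR4 (0.95 ± 0.19) and SRPRA (0.56 ± 0.12), which serve entry into the ER, P4HB (0.60 ± 0.12) and GANAB (0.44 ± 0.13), which fold and trim glycoproteins, and CRELD2 (0.71 ± 0.22), DNAJC1 (0.46 ± 0.12) and CREB3L2 (0.41 ± 0.12).

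The positive nuclei were deeper in every gland, for instance with a median of 2648 against 695 UMIs in G90 sow 2 and 1963.5 against 1436 UMIs in L20 sow 1, and L0 sow 1 had 80 free nuclei beside 6729 positive ones. Milk protein RNA was also found in other classes, for instance at 0.643% of UMIs in fibroblast, 0.474% in myoepithelial and 0.464% in macrophage nuclei of L0 sow 1, against 1.13% in luminal nuclei, so a milk protein UMI need not come from the nucleus that holds it. The part of depth and of such RNA in the result was not tested. None of the 3 genes was called when the gland block was dropped. Over 8 alternative settings without a required fold change, HSP90B1 kept its call in 4, and XBP1 and CREB3L1 in 7 each. With 1 gland left out, HSP90B1 kept it in 8 of 10 fits, and XBP1 and CREB3L1 in all 10.

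Because the chaperones were low in luminal nuclei at L0, their L0 change was compared between luminal nuclei and fibroblast, endothelial and macrophage nuclei, as a test added after the values were seen. The low luminal values that prompted the test also enter it and raise the differences of these genes. Neither its calls nor its counts beside the shares of all genes can therefore serve as support. HSP90B1 did not follow the luminal pattern in fibroblast nuclei, where the L0 glands held 254 and 305 CPM (112 and 19 UMIs) against 81.3 to 623 CPM in the others. The L0 change of HSP90B1 in fibroblast minus luminal nuclei was 1.68 ± 0.37 on the log2 scale (adjusted p = 0.0192 by edgeR), and it was the 1 of 8 genes called, where 0.955% of 13921 genes were. It was lost without either L0 gland or either PI7 gland. In endothelial nuclei (2.42% of genes called) and macrophage nuclei (0.417%) none of the 8 was called. At an unadjusted p under 0.05 there were 6 of 8 in endothelial nuclei, where 15.7% of genes passed, 6 of 8 in macrophage nuclei, where 12.1% did, and 5 of 8 in fibroblast nuclei, where 14.3% did. DESeq2 was not run for this comparison. HSP90B1 stood at 1.23 ± 0.36 in endothelial (adjusted p = 0.0628 by edgeR) and 1.61 ± 0.39 in macrophage nuclei (adjusted p = 0.0528), and CALR at 1.54 ± 0.40 in fibroblast nuclei (adjusted p = 0.0511).

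Cells shed into milk gave a view of whole-cell RNA, in 1 library per stage and therefore without a test. Luminal epithelial-marker cells of colostrum (2932 cells at L0) carried more chaperone RNA relative to all UMIs than those of mature milk (1146 cells at L20). HSPA5 stood at 890 CPM (95% Poisson interval 882 to 898) at L0 and 194 CPM (185 to 204) at L20, which is 4.59-fold. PDIA4 stood at 318 CPM (314 to 323) and 67.1 CPM (61.8 to 72.8), 4.74-fold. HSP90B1 was 3.89-fold, XBP1 3.63-fold, CALR 3.06-fold and CANX 2.57-fold higher at L0. In all, 6 of the 8 genes over 20 CPM were at least 2-fold higher, where 15.5% of 3447 genes were. ATF4 was 1.71-fold higher, and CREB3L1 was higher at L20 (111 against 78.2 CPM). DDIT3 had 31 UMIs at L0 and 2 at L20.

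These intervals cover counting error only. In luminal nuclei of the gland, HSPA5, HSP90B1, CALR, CANX and PDIA4 were lowest at L0, with 10.8 and 12.9 CPM of HSPA5, and XBP1 was not. Milk cells and gland nuclei differ in assay and RNA compartment, the sows that gave the milk are not named in the labels, and the values are set side by side without a comparison. The milk luminal cells of L0 were far deeper, with a median of 16843.5 UMIs against 2701 at L20, and 2188 of 2932 cells at L0 carried 2 or more markers of another class, against 277 of 1146 at L20. Mitochondrial UMIs of these luminal cells were 2.45% per cell by median at L0 and 0.192% at L20. The part of depth, mixed markers or mitochondrial share in the difference was not tested. After thinning to 1000 UMIs per cell, HSPA5 was detected in 47.0% of cells at L0 and 9.16% at L20, and XBP1 in 37.7% and 12.5%.

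The same comparison was made in other milk cells. In macrophage-marker cells, none of the genes was at least 2-fold higher at L0 (7.73% of genes were), with HSPA5 at 789 CPM at L0 and 807 CPM at L20. In neutrophil-marker cells, the most numerous class (10325 and 6224 cells), XBP1 was 2.41-fold higher at L0 (47.8 against 19.9 CPM), where 8.2% of genes were 2-fold higher. With cells under 500 genes or over 10% mitochondrial UMIs removed, however, none of the genes was 2-fold higher and 2 were 2-fold lower, and the share of all genes under that filter is not given. Without that filter HSPA5 was at 189 CPM at L0 and 258 CPM at L20. In T and NK cells none reached 2-fold (6.12% did), and XBP1 was at 1.83-fold. In plasma-marker cells (38 and 27 cells), HSPA5, HSP90B1, PDIA4 and XBP1 were 2.21- to 3.29-fold higher at L0, where 28.7% of genes were at least 2-fold higher. In luminal-marker cells set apart by at least 2 hormone-sensing markers (122 and 22 cells), HSPA5 stood at 834 CPM at L0 and 236 CPM at L20, and PDIA4 at 329 and 74.3 CPM.

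Of the other pathway genes with a mean over 20 CPM in milk luminal cells, 41 of 57 were at least 2-fold higher at L0 and none lower. A gene could pass that limit through L0 alone, as MOGS did with 7.80 CPM at L20. All 9 folding enzymes were higher, with MOGS at 4.70-fold and PDIA3 at 4.48-fold, and so were 8 of 12 chaperones, with CRELD2 at 7.31-fold and PPIB at 4.93-fold, and 14 of 17 genes for entry into the ER, with SSR1 at 3.19-fold and SEC61A1 at 3.03-fold. The 3 sensors over 20 CPM, ATF6, CREB3 and NFE2L2, were not. In milk macrophage cells 6 of 68 pathway genes were at least 2-fold higher at L0 and 1 lower.

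**Figure D5:**
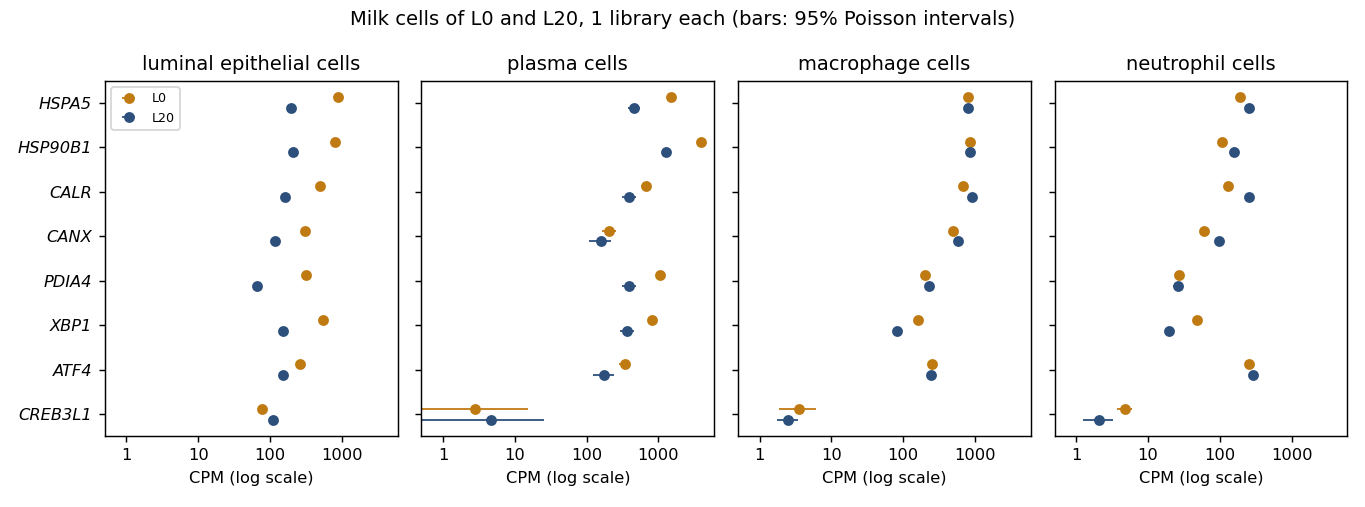
Level of 8 genes (x axis, CPM on a log scale) in 4 classes of milk cells at L0 and L20, with 1 library per stage and bars for 95% Poisson intervals. In luminal cells 6 of the 8 genes are at least 2-fold higher at L0, and in macrophage cells HSPA5 is at 789 CPM at L0 and 807 CPM at L20.

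In the spatial sections the 8 genes over 20 CPM were lower at PI2 than at G90, with 1 section each and no test. HSP90B1 stood at 384 CPM (95% Poisson interval 378 to 390) at G90 and 117 CPM (112 to 122) at PI2, 3.28-fold lower. XBP1 was 2.25-fold lower (337 and 149.5 CPM) and HSPA5 2.11-fold lower (196 and 92.8 CPM), so 3 of the 8 genes over 20 CPM were at least 2-fold lower, where 11.6% of 6074 genes were. PDIA4 was 1.89-fold, ATF4 1.74-fold, CALR 1.62-fold, CANX 1.52-fold and CREB3L1 1.47-fold lower. DDIT3 had 2 UMIs at PI2 and 0 of 42815421 at G90, which allows up to 0.0701 CPM. Of 10 other chaperones over 20 CPM, 5 were at least 2-fold lower, and of all 65 other pathway genes 12 were lower and 1 higher. Which sow the PI2 section came from is not given in the labels.

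Within the G90 section, the 472 of 4721 spots richest in milk protein RNA held more HSPA5 (333 CPM against 196 CPM over all spots, 1.70-fold), XBP1 (491 against 337 CPM, 1.46-fold) and ATF4 (606 against 421 CPM, 1.44-fold), and less CALR (0.869-fold). None reached 2-fold, as 0.0637% of 6281 genes did. Luminal-rich spots of that section held 174 CPM of HSPA5, less than all spots. In the PI2 section, where milk protein genes took only 0.00489% of UMIs, the spots richest in them held 104 CPM of HSPA5 against 92.8 CPM. No gene of the 8 reached 2-fold there (0.0338% of 5920 genes did). Fibroblast-rich spots held the most HSPA5 of the 5 kinds in the PI2 section, at 132 CPM. Of the 5 kinds of spots compared in the G90 section, CALR was highest in fibroblast-rich spots, at 694 CPM against 503 CPM over all spots. A spot covers several cells, so these are regions and not cell types.

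Over the 10 luminal sums, the gene most like HSPA5 in log2 CPM among 7323 genes was HSP90B1 (Pearson r = 0.979), followed by SUPT6H (0.967), PATL1 (0.954), PPP1R10 (0.949) and IK (0.947). Those most like XBP1 were CCDC34 (0.908), MSANTD4 (0.902), TRMT10A (0.887), SSB (0.875) and SPTY2D1 (0.860). PI2 sow 2 was the highest gland for HSPA5 and G90 sow 2 for XBP1. These are descriptions over 10 sums that share stage and depth.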

How the data were processed

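Single-nucleus libraries of 10 glands, 2 milk cell libraries and 2 Visium sections of the pig were analysed from the UMI count matrices that the authors deposited. The counts were made by the authors with CeleScope on Sscrofa11.1 and, for the sections, with Space Ranger, for which the labels name version 1.2.0; no source used here gives the annotation release. Counts carried no normalization. Droplets under 300 genes or over 25% mitochondrial UMIs were removed. A nucleus joined the class with the most detected markers, at least 2 and more than any other class, so names rest on these rebuilt gates and may differ from the study's clusters; no doublet caller was run. Sums per gland (at least 10 nuclei) were tested in edgeR 4.0.16 (TMM scaling, low-count filter, quasi-likelihood, Benjamini-Hochberg over all genes, call at an adjusted p under 0.05; R 4.3.3), with the gland as block between classes, and with DESeq2 1.42.0 as alternative. The fits were run on simulated counts drawn from 1 mean profile, with no effect of gland, class or stage beyond the changed genes. These counts therefore cannot show how the fits behave under the scaling shifts between classes. For L0 against the 4 other stages in luminal nuclei, 49 of 100 genes changed 4-fold and 100 of 100 changed 16-fold were recovered. For plasma nuclei 35 of 100 genes changed 2-fold and 90 of 100 changed 4-fold were recovered, and for fibroblast nuclei 89 and 100. SE is the fold change divided by the root of F. Where a group had 1 library, genes with a mean of at least 20 CPM over the 2 sides compared were set against each other by 2-fold with no test. A gene can pass that limit through its higher side alone. Poisson intervals cover counting error only. Gene symbols came from the files, with 615 added from the reference.

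The 10 genes, the lists of 83 other pathway genes (80 found) and the comparisons were chosen with earlier results of these data known. Of the 10 genes, ERN1 has no value and DDIT3 was too low to test between classes or to compare by fold; other pathway genes are given as counts per group and, by name, as the 2 called genes with the largest fold per direction and group at a mean of at least 5 CPM, and for comparisons with 1 library per group the names were chosen after the values were seen. For endothelial nuclei only the ATF4 group is given by name, and for myoepithelial, mural, T and NK, B and adipocyte nuclei counts are given without names. Among the other pathway genes, a called gene that this naming rule selects is not reported here.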

Additional observations from a re-analysis of the deposited data

Results flagged for a closer look

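The L0 change of HSP90B1, L0 against the 4 other stages, differed between fibroblast and luminal nuclei by 1.68 on the log2 scale (SE 0.37, adjusted p = 0.0192 by edgeR, interaction of class and stage with the gland as block), in a test added after the values were seen. In luminal nuclei both L0 glands lay below the other 8, and in fibroblast nuclei they stood at 254 and 305 CPM, within the 81.3 to 623 CPM of the other 8, on 112 and 19 UMIs. The low luminal values prompted the test and also enter it, so the call cannot serve as support.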

How the results depend on the processing

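Replicate numbers did not pair the sows: deviations of same-numbered glands correlated between -0.52 and 0.39 over 10 pairs of stages, and a replicate block left the stage contrasts with 0 calls of the 9 genes. The stage contrasts had 0 calls under each alternative run, apart from any stage. There DESeq2 gave 1 call (HSPA5) over the whole gland and 1 in luminal nuclei, no filter on low counts gave 3 in luminal nuclei, and leaving out 1 gland gave 0 to 1 in both, the 1 without PI2 sow 1.

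Calls between classes moved as follows. With DESeq2, calls numbered 6 in mural, 3 in fibroblast, 2 in endothelial, 3 in macrophage, 7 in T and NK, 7 in B and 5 in adipocyte nuclei. The share of all genes called by DESeq2 is not given for these counts. With DESeq2 the direction turned for HSP90B1 in myoepithelial nuclei (-0.20), for HSP90B1 (-0.0902), CALR (-0.0265), PDIA4 (-0.0416) and ATF4 (-0.17) in endothelial nuclei, for HSP90B1 (-0.0770), CANX (-0.0779) and PDIA4 (-0.0908) in macrophage nuclei and for XBP1 in plasma nuclei (-0.23), as the median of all genes moved down by the amounts in the report. RLE size factors gave 7 in myoepithelial, 2 in mural and 0 in B nuclei. Without the gland block (no replicate block) calls were 2 in myoepithelial, 1 in fibroblast, 1 in endothelial, 3 in macrophage nuclei and 0 for milk-gene-positive nuclei. A required log2 fold change over 1 left 0 in fibroblast, 1 in endothelial, 2 in macrophage and 0 in milk-gene-positive nuclei. Leaving out nuclei of mixed markers, chosen after seeing the data, gave 2 in mural, 4 in macrophage and 0 in adipocyte nuclei, and a gate of 3 markers gave 0 in adipocyte nuclei, no value for B nuclei and 1 gene at 2-fold higher in milk macrophage cells. With milk cells under 500 genes or over 10% mitochondrial UMIs removed, milk neutrophil cells had 0 genes higher and 2 lower, and the share of all genes is not given.

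Leaving out 1 gland gave 3 to 5 calls in myoepithelial, 4 to 5 in fibroblast, 3 to 7 in endothelial (3 without either L0 gland), 5 to 7 in macrophage, 2 to 3 in T and NK, 5 to 6 in plasma, 0 to 2 in B (0 without PI7 sow 1, 2 without L20 sow 2), 1 to 2 in adipocyte (2 without L0 sow 1) and 2 to 3 in milk-gene-positive nuclei. The difference of the L0 change in fibroblast nuclei had 0 to 1 calls, with 0 without either L0 or either PI7 gland. Of all alternative counts, 337 stayed within 1.5 times the reported count and 40 did not. Apart from the shifted medians, the cause was not tested.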
